A study of Saccharomyces cerevisiae with 12 samples.

Results

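The genes described here carry protons, potassium and sodium across the yeast plasma membrane, or bind the pump that does so. They are *PMA1*, *PMA2*, *PMP1*, *PMP2*, *TRK1*, *TRK2*, *TOK1*, *NHA1* and *ENA1*, chosen by symbol, and all 9 are measured by 1 probe set each among the 5716 probe sets paired with an *S. cerevisiae* gene. The probe set of *ENA1* also lists *ENA2* and *ENA5*, whose genes lie next to it, so its values belong to the 3 genes together. The arrays, of the GeneChip Yeast Genome 2.0 design (Affymetrix), numbered 12, with 3 in each of 4 groups, and the deposited values of total RNA are on a log2 scale.

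EG103 is the wild-type strain, of mating type *MATα*, *GAL*+, with the alleles *ura3-52*, *trp1-289a*, *his3Δ1* and *leu2-3 112*, and EG110 is EG103 with its mitochondrial manganese superoxide dismutase (MnSOD) gene replaced (*sod2 Δ::TRP1*). The *TRP1* marker that replaced *SOD2* is therefore part of every difference between the strains. Cells of each strain grew aerobically for 48 h at 28 °C in YPE, a rich medium with ethanol as the carbon source, either without aspirin or with 15 mM aspirin. The labels state that the medium with aspirin was brought to pH 5.5 with Trizma base and give no pH for the untreated medium, so aspirin and the set pH cannot be told apart in these comparisons. Replicates are labelled as biological replicates.

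The plasma membrane H+-ATPase Pma1 is an essential pump of the yeast cell, which spends ATP to drive protons out and so holds the cytosol near neutral and the membrane electrically charged. That gradient powers nutrient uptake and draws in potassium through Trk1 and Trk2, while the channel Tok1 lets potassium out, the antiporter Nha1 exchanges sodium or potassium for protons, and the Ena ATPases expel sodium. Weak acids enter the cell undissociated and release protons inside it, and the H+-ATPase is known as the pump that removes them.

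On every array, all 9 genes lay above the 95th percentile of the probe sets with no *S. cerevisiae* gene, which was 5.26 to 5.30 in EG110 and 5.42 to 5.50 in EG103. *SOD2* averaged 4.71 ± 0.26 (SD, n = 3) in untreated and 4.77 ± 0.04 in aspirin-treated EG110 cells, below that percentile, against 14.30 ± 0.09 and 14.28 ± 0.08 in EG103. The *MAT*α genes *MF(ALPHA)1*, *MF(ALPHA)2* and *STE3* had group means of 9.21 to 14.15. The *MAT***a** genes *MFA1*, *MFA2*, *STE2* and *BAR1* had group means of 7.29 to 9.56, also above that percentile. Array medians over the tested probe sets were 11.15 to 11.18 in EG110 and 11.36 to 11.39 in EG103, and the median difference of EG110 from EG103 was -0.20 without and -0.19 with aspirin. Differences between the strains are therefore also given relative to that median.

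With aspirin, *PMA1* and the H+-ATPase proteolipid gene *PMP2* rose in EG110 cells, and the pump isoform gene *PMA2* and *ENA1* fell. In EG103 cells *PMA2* rose and no other member was called. A gene was called at a limma adjusted P below 0.05 together with a fold change of at least 1.5. By that rule 4 of the 9 members were called in EG110, where 12% of all tested probe sets were (5.90% higher and 6.09% lower). In EG103 it was 1 of 9, where 2.61% of all were (1.75% higher and 0.857% lower). The aspirin effect itself differed between the strains for *PMA1*, *PMA2* and *ENA1*, 3 of 9 members, where 11.6% of all probe sets passed the interaction test (5.21% higher and 6.37% lower). By the adjusted P alone, 7 members passed in EG110, 2 in EG103 and 6 in the interaction, where 52.3%, 20.6% and 33.1% of all did. Of the 7, *TOK1* did not pass when the replicate number was fitted as a block. Over all alternatives *PMP1* and *TOK1* had adjusted P-values of up to 0.1575 and 0.195. The median difference over the 9 members was -0.12 in EG110 and 0.06 in EG103, where that of all tested probe sets was 0.02 and 0.01.

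**Figure D1:**
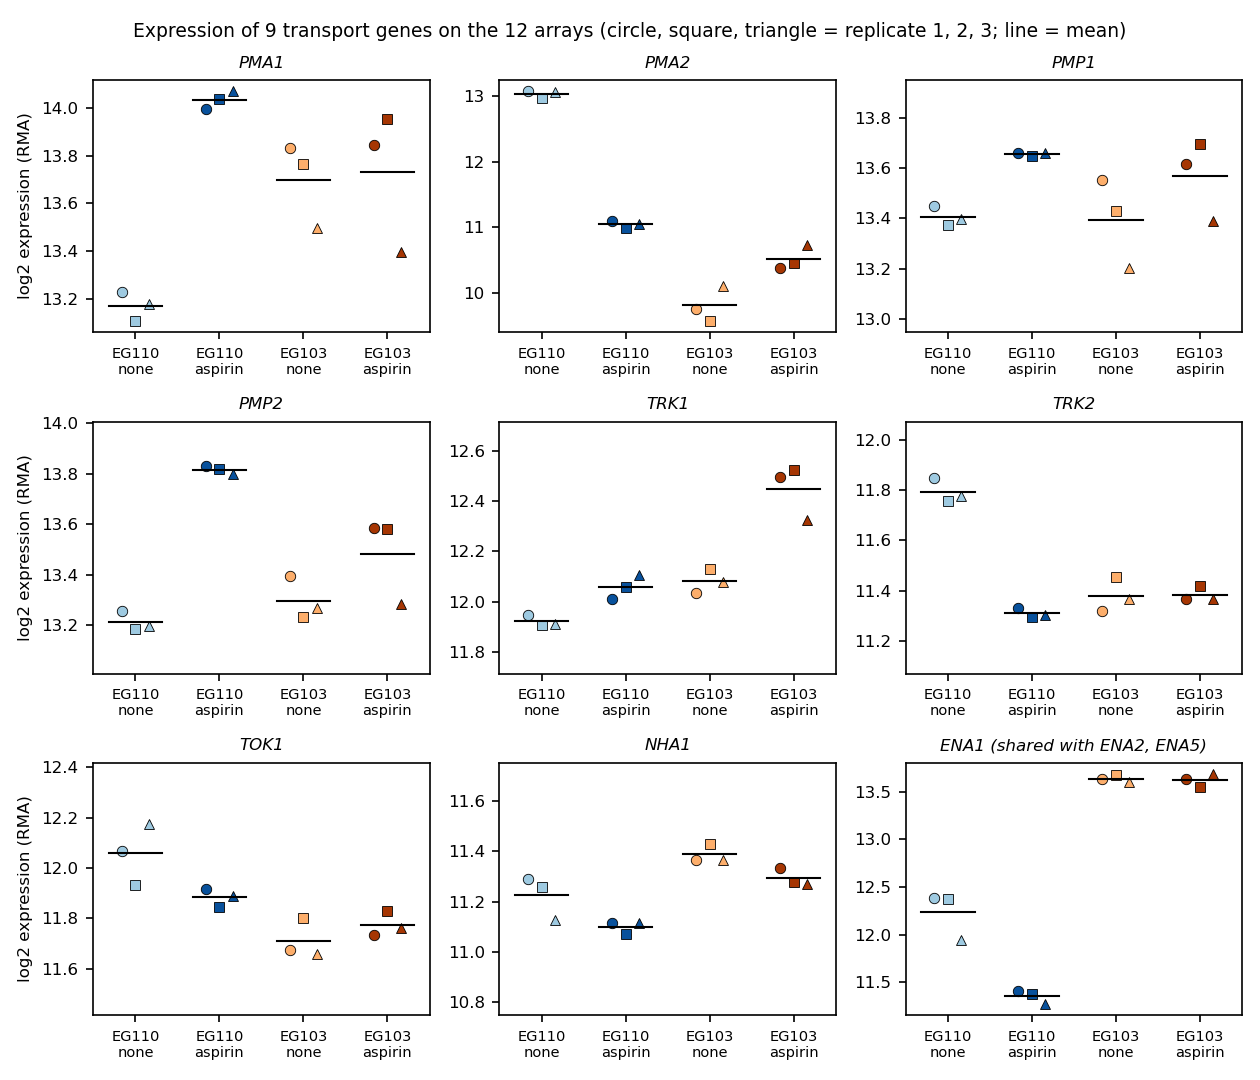
Log2 expression of the 9 transport genes on each of the 12 arrays, by group on the horizontal axis, with a line at the mean of each group of 3 arrays and a symbol for each replicate; the vertical scale differs between panels. *PMA2* ranges from 9.59 to 13.06 and *ENA1* from 11.28 to 13.68, while *PMP1* stays between 13.20 and 13.70.

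*PMA1* encodes the main H+-ATPase. Its log2 values in untreated EG110 cells were 13.23, 13.11 and 13.18, and with aspirin they were 14.00, 14.04 and 14.07. In untreated EG103 cells they were 13.83, 13.77 and 13.50, and with aspirin 13.85, 13.95 and 13.40. The aspirin-treated EG110 arrays were thus the highest of the 12 and the untreated EG110 arrays the lowest, and the EG103 groups lay between them and overlapped each other. The rise in EG110 was 0.86 on the log2 scale (SE 0.12, 95% interval 0.59 to 1.14), or 1.82-fold (adjusted P = 0.000131). In EG103 the difference was 0.03 (interval -0.24 to 0.30, adjusted P = 0.887). The effects of the strains differed by 0.83 (SE 0.18, adjusted P = 0.00383), and without replicate 1 of every group that adjusted P was 0.0522, the highest of its alternatives (0.000421 to 0.0522).

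Between untreated strains *PMA1* was lower in EG110 than in EG103, with a difference of -0.53 on the log2 scale (1.44-fold, adjusted P = 0.00219), under the fold threshold. Relative to the median of all probe sets the difference was -0.33. It passed the threshold, with a difference of -0.63, when EG103 replicate 3 was left out. Over its alternatives the difference ranged from -0.63 to -0.31, with a highest adjusted P of 0.0534. With aspirin *PMA1* was 0.30 higher in EG110 (adjusted P = 0.0440), or 0.49 relative to the median. The order of the groups was untreated EG110, untreated EG103, aspirin-treated EG103 and aspirin-treated EG110, and the middle pair did not differ beyond its spread.

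*PMA2* encodes a second H+-ATPase, a close paralog of Pma1 known as the minor form. It gave 13.06, 12.96 and 13.06 in untreated EG110 cells and 11.10, 11.00 and 11.05 with aspirin. In EG103 it gave 9.77, 9.59 and 10.11 untreated and 10.38, 10.46 and 10.73 with aspirin. No array of any group overlapped another group, and all 6 EG110 arrays lay above all 6 EG103 arrays. In EG110 it fell by 1.98 on the log2 scale with aspirin (SE 0.12, 95% interval -2.23 to -1.72), or 3.93-fold (adjusted P = 1.43e-07), the 19th largest fall of the 5716 probe sets. In EG103 it rose by 0.70 (SE 0.12, interval 0.44 to 0.96), or 1.63-fold (adjusted P = 0.00248). That rise was not called without replicate 1 of every group (adjusted P = 0.0738, with a range of 0.000534 to 0.118 over the alternatives). The difference between the 2 effects was -2.68 (SE 0.17, adjusted P = 7.24e-07), the 4th most negative interaction measured.

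In untreated cells *PMA2* was 3.21 higher in EG110 than in EG103 (SE 0.12, 9.23-fold, adjusted P = 1.71e-09), or 3.40 relative to the median of all probe sets. Only 4 of the 5716 probe sets had a larger positive difference. With aspirin the strains were closer, at 0.53 (1.44-fold, adjusted P = 0.00164) or 0.71 relative to the median. *PMA2* thus had its highest values where *PMA1* had its lowest, in untreated EG110 cells. The log2 ratio of *PMA1* to *PMA2* within each array is unchanged by a constant shift of a whole array, and its change under quantile normalization was not tested. It shifted by 2.84 with aspirin in EG110 and by -0.67 in EG103 (exact permutation P = 0.1 and 0.3, two-sided, where 0.1 is the smallest that 3 arrays against 3 can give). Between the strains, EG110 minus EG103, it shifted by -3.73 without and -0.22 with aspirin (exact permutation P = 0.1 and 0.4). This ratio was chosen after the values of both genes had been seen, and cross-hybridization between the paralogs was not tested.

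*PMP1* and *PMP2* encode small proteolipids that associate with the H+-ATPase and regulate its activity. *PMP2* gave 13.25, 13.18 and 13.20 in untreated EG110 cells and 13.83, 13.82 and 13.80 with aspirin. In EG103 its values were 13.39, 13.23 and 13.27 untreated and 13.58, 13.58 and 13.28 with aspirin. The EG110 groups were clear of each other, and in EG103 the third aspirin array fell within the untreated range. *PMP2* rose by 0.61 in EG110 (SE 0.08, 1.52-fold, adjusted P = 5.11e-05), which is close to the fold threshold, and after quantile normalization of all arrays it was 0.57 and no longer called. In EG103 the difference was 0.19 (adjusted P = 0.108), and the interaction of 0.42 (adjusted P = 0.0117) stayed under the fold threshold. With aspirin *PMP2* was 0.33 higher in EG110 than in EG103 (adjusted P = 0.00193), and without aspirin the difference was -0.09 (adjusted P = 0.329).

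*PMP1* moved less. Its EG110 values were 13.37 to 13.45 untreated and 13.65 to 13.66 with aspirin, a difference of 0.25 (1.19-fold, adjusted P = 0.0344, or 0.00326 to 0.1575 over its alternatives). In EG103 they were 13.20 to 13.55 and 13.39 to 13.70, which overlapped, with a difference of 0.17 (adjusted P = 0.193). Neither strain difference nor the interaction passed an adjusted P of 0.05. Within arrays, the log2 ratio of *PMP2* to *PMP1* shifted with aspirin by 0.36 in EG110 and by 0.01 in EG103. The third EG103 replicate had the lowest *PMA1* and *PMP1* values and the highest *PMA2* values of its group, both without and with aspirin.

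**Figure D2:**
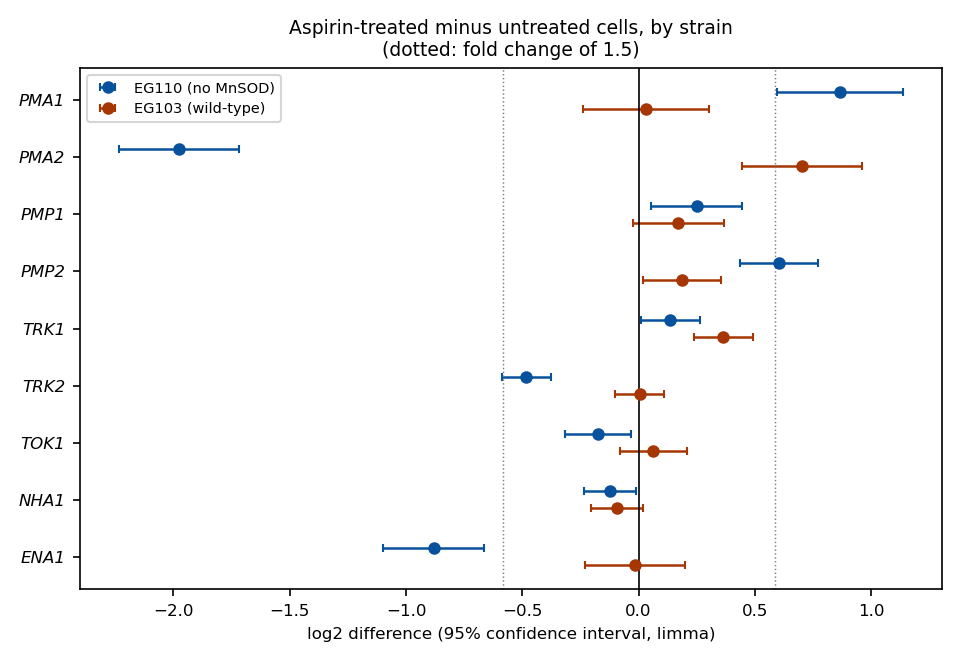
Log2 difference of aspirin-treated from untreated cells for each of the 9 genes, in EG110 and EG103, as points with 95% confidence intervals from limma; dotted lines mark a fold change of 1.5. In EG110 *PMA1* stands at 0.86, *PMA2* at -1.98 and *ENA1* at -0.88, against 0.03, 0.70 and -0.01 in EG103.

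The potassium importers *TRK1* and *TRK2* passed no fold threshold in any comparison of the deposited values, and they differed from each other in where they shifted. *TRK1*, which encodes the high-affinity importer, gave 12.04, 12.13 and 12.08 in untreated EG103 cells and 12.49, 12.52 and 12.32 with aspirin. These groups did not overlap, and the difference was 0.37 (SE 0.06, 1.29-fold, adjusted P = 0.00176). In EG110 its values were 11.91 to 11.95 untreated and 12.01 to 12.11 with aspirin, a difference of 0.14 (adjusted P = 0.0644). The interaction was -0.23 (adjusted P = 0.0489). *TRK1* was lower in EG110 than in EG103, at -0.16 without aspirin (adjusted P = 0.0257) and -0.39 with it (adjusted P = 7.13e-05). The smaller of these is within the shift of all probe sets and changed sign, to 0.06, once arrays were centred on their medians.

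*TRK2* encodes the second importer. Its values were 11.85, 11.76 and 11.77 in untreated EG110 cells and 11.33, 11.30 and 11.30 with aspirin. In EG103 they were 11.32, 11.45 and 11.37 untreated and 11.37, 11.42 and 11.37 with aspirin. The untreated EG110 arrays were above the other 9 arrays, and those 9 spanned 11.30 to 11.45. The difference with aspirin in EG110 was -0.48 (SE 0.05, 95% interval -0.59 to -0.38), or 1.40-fold lower (adjusted P = 9.44e-06). In EG103 it was 0.0043 (interval -0.10 to 0.11, adjusted P = 0.965), and the interaction was -0.49 (SE 0.07, adjusted P = 0.000287). Untreated EG110 cells were 0.41 above untreated EG103 cells (adjusted P = 1.07e-05), a difference that was called, at 0.64, once arrays were centred on their medians. Within arrays, the log2 ratio of *TRK1* to *TRK2* was higher with aspirin by 0.62 in EG110 and by 0.36 in EG103. Between the strains, EG110 minus EG103, it shifted by -0.57 without and -0.31 with aspirin. The exact permutation P was 0.1 for each of these, the smallest that 3 arrays against 3 can give.

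*TOK1*, the gene of the outward potassium channel, was highest in untreated EG110 cells, at 11.93 to 12.18. It lay at 11.84 to 11.92 in aspirin-treated EG110, 11.66 to 11.80 in untreated EG103 and 11.73 to 11.83 in aspirin-treated EG103 cells. The aspirin difference was -0.18 in EG110 (adjusted P = 0.0406, or 0.0609 with the replicate block) and 0.06 in EG103 (adjusted P = 0.522), and the interaction was -0.24 (adjusted P = 0.0672). Untreated EG110 cells were 0.35 above EG103 (1.27-fold, adjusted P = 0.000442), or 0.54 relative to the median of all probe sets.

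*NHA1*, the Na+/H+ antiporter gene, had the narrowest range of the 9 over the 12 arrays. Its values were 11.13 to 11.29 in untreated and 11.07 to 11.12 in aspirin-treated EG110 cells, and 11.37 to 11.43 and 11.27 to 11.33 in EG103. The aspirin differences were -0.12 and -0.09 (adjusted P = 0.0605 and 0.215), and the interaction was -0.03 (adjusted P = 0.792). Its strain differences of -0.16 and -0.19 (adjusted P = 0.0129 and 0.00487) changed sign, to 0.06 and 0.0046, once arrays were centred on their medians.

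*ENA1* encodes a sodium-exporting ATPase, known for induction by salt and alkaline pH and for repression by glucose. Its shared probe set gave 12.38, 12.38 and 11.95 in untreated EG110 cells and 11.41, 11.38 and 11.28 with aspirin. In EG103 it gave 13.63, 13.68 and 13.60 untreated and 13.64, 13.55 and 13.68 with aspirin. Every EG110 array lay below every EG103 array, the aspirin-treated EG110 arrays were the lowest, and the EG103 groups overlapped. With aspirin in EG110 it fell by 0.88 on the log2 scale (SE 0.10, 95% interval -1.10 to -0.67), or 1.84-fold (adjusted P = 2.02e-05). In EG103 the difference was -0.01 (interval -0.23 to 0.20, adjusted P = 0.940), and the interaction was -0.87 (SE 0.14, adjusted P = 0.000652).

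*ENA1* was lower in EG110 than in EG103, with a difference of -1.40 without aspirin (SE 0.10, 2.64-fold, adjusted P = 1.83e-07) and of -2.27 with it (4.81-fold, adjusted P = 3.59e-09). Relative to the median of all probe sets these were -1.20 and -2.08, and the second was the 38th most negative difference of the 5716. *ENA5* also has a probe set of its own, which separates part of the cluster. It gave 9.78 to 9.82 in untreated and 9.57 to 9.74 in aspirin-treated EG110 cells, and 10.55 to 10.85 and 10.73 to 10.85 in EG103. Here too EG110 was lower, at -0.94 without and -1.15 with aspirin (adjusted P = 4.86e-07 and 8.24e-08). The aspirin differences of *ENA5* were -0.17 in EG110 and 0.05 in EG103 (adjusted P = 0.0874 and 0.695), neither called. How *ENA1* and *ENA2* share the signal of the joint probe set was not tested.

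Between untreated strains 2 of the 9 members were called, *PMA2* higher and *ENA1* lower in EG110, where 24.8% of all probe sets were called (7.45% higher and 17.4% lower). Between aspirin-treated strains 1 of 9 was called, *ENA1* lower, where 25.1% of all were (7.03% higher and 18.1% lower). By the adjusted P alone, 7 members passed untreated and 6 with aspirin, where 72.6% of all did in each. Centring each array on its median made *PMA2*, at 0.72, a call between aspirin-treated strains, as did leaving out EG103 replicate 3. The split of all calls depends on that centring. Without aspirin it was 426 higher and 993 lower as deposited, 754 and 465 after centring, and 618 and 553 after quantile normalization. With aspirin it was 402 and 1033 as deposited, 685 and 582 after centring, and 631 and 605 after quantile normalization. Groups did not overlap for 7 of 9 members between untreated and 8 of 9 between aspirin-treated strains, where 73.1% and 79.3% of all probe sets did not. With aspirin it was 9 of 9 in EG110 and 3 of 9 in EG103, where 62.0% and 39.0% of all did not.

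**Figure D3:**
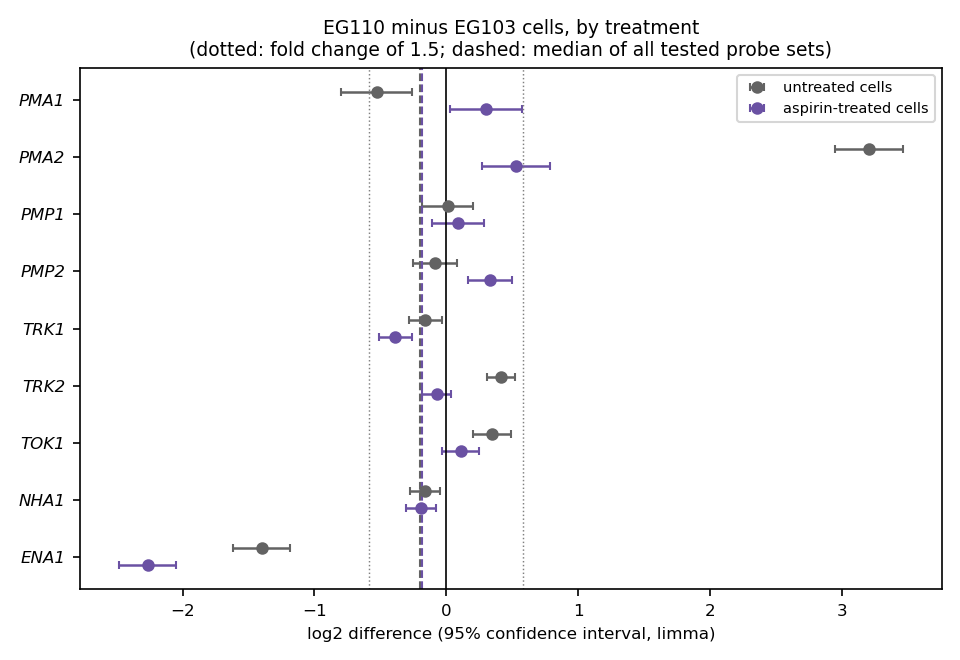
Log2 difference of EG110 from EG103 for each of the 9 genes, in untreated and aspirin-treated cells, as points with 95% confidence intervals from limma; dotted lines mark a fold change of 1.5. *PMA2* stands at 3.21 untreated and 0.53 with aspirin, and *ENA1* at -1.40 and -2.27.

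Of 9 genes that act on the H+-ATPase, 2 were called with aspirin in EG110, both higher, where 12% of all probe sets were called. They were *HRK1*, a protein kinase gene implicated in activating Pma1, and *AST1*, whose product takes part in delivering Pma1 to the plasma membrane. *HRK1* went from 12.03 ± 0.12 to 13.25 ± 0.04 (SD, n = 3), a rise of 1.22 (adjusted P = 2.49e-07), and *AST1* from 10.08 ± 0.08 to 10.87 ± 0.04, a rise of 0.79 (adjusted P = 1.01e-06). Both effects differed between the strains, by 0.85 and 0.74 (adjusted P = 0.00014 and 5.96e-05). *HRK1* also rose in EG103, by 0.36 (adjusted P = 0.00845), under the fold threshold, and *AST1* differed there by 0.04 (adjusted P = 0.638). In EG103 limma called none of the 9, where 2.61% of all were called. There 2 of the 9 had a P below 0.05 both adjusted and unadjusted, where 20.6% of all had an adjusted one. The kinase genes *PTK1* and *PTK2*, the latter a known activator of Pma1, had differences of -0.28 and -0.15 in EG110 (adjusted P = 0.00736 and 0.0693), and *AST2*, the paralog of *AST1*, had -0.23 (adjusted P = 0.0405), all under the fold threshold. The median difference of the list was 0.01 in EG110 and 0.04 in EG103, close to those of all tested probe sets.

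Of 11 genes that act on potassium transport, 2 were called with aspirin in EG110, both higher, where 12% of all probe sets were called. In EG103 it was 2, 1 higher and 1 lower, where 2.61% of all were. By the adjusted P alone, 8 passed in EG110 and 5 in EG103, where 52.3% and 20.6% of all did. The count called in EG110 was 4 without replicate 1 of every group, without aspirin-treated EG110 replicate 2 or without untreated EG110 replicate 1. Of all probe sets 706, 664 and 709 were then called, in that order. *KCH1*, a potassium importer gene of the pheromone response, rose by 0.89 (adjusted P = 4.82e-07), and *PPZ1*, a phosphatase gene whose product restrains Trk transport and *ENA1* expression, by 0.68 (adjusted P = 4.56e-06). In EG103, *PRM6*, the paralog of *KCH1*, rose by 0.84 (adjusted P = 0.000174). Each of these paralogs also shifted the same way in the other strain under the fold threshold, *PRM6* by 0.57 in EG110 (adjusted P = 0.000312) and *KCH1* by 0.32 in EG103 (adjusted P = 0.00528), and their interactions were -0.27 for *PRM6* (adjusted P = 0.139) and 0.58 for *KCH1* (adjusted P = 0.000418), neither called. *HAL5*, a kinase gene needed for stable Trk transporters, fell by 0.71 in EG103 (adjusted P = 0.00318), a call lost without replicate 1 (adjusted P = 0.126) or replicate 2 (adjusted P = 0.0606) of every group and ranging from 0.000533 to 0.126 over the alternatives. Between untreated strains 3 of the 11 were called, all lower in EG110, where 17.4% of all probe sets were called lower. They were *HAL5* at -1.23, *KCH1* at -0.66 and *PPZ2* at -0.60 (adjusted P = 3.27e-06, 1.47e-06 and 1.08e-06). After centring each array on its median 1 was called, where 465 of the 5716 probe sets were called lower. *KCH1* averaged 9.24 in untreated EG110 cells and 10.13 with aspirin, against 9.90 and 10.21 in EG103. Of the 11 interactions 1 was called, that of *PPZ1* (0.61, adjusted P = 0.000341), where 11.6% of all probe sets were called. When replicates were left out the count was 1 to 2, where 580 to 716 of all were called. The list's median was 0.04 in EG110 and -0.03 in EG103.

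Of 16 regulators of *ENA1* transcription, 3 were called with aspirin in EG110 and none in EG103, where 12% and 2.61% of all probe sets were called. In EG103 limma gave 2 an adjusted P below 0.05, where 20.6% of all had one, and 5 an unadjusted one. *MIG2* and *NRG1*, both genes of glucose-responsive repressors, rose by 2.73 and 0.92 (adjusted P = 2.24e-06 and 5.42e-06). *NRG2*, the paralog of *NRG1*, fell by 0.78 (adjusted P = 0.000697). The 3 aspirin-treated EG110 arrays had *MIG2* at 11.07 to 11.23, above the 7.78 to 8.76 of untreated EG110 cells. Calcineurin genes *CNA1*, *CMP2* and *CNB1* and its transcription factor gene *CRZ1* had differences of -0.26 to 0.12 in EG110 and were not called. The list's median was 0.06 in EG110 and -0.06 in EG103.

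Between untreated strains 8 of these 16 were called, all lower in EG110, where 17.4% of all probe sets were called lower. They were led by *CYC8* (-0.93), *NRG1* (-0.91), *GLN3* (-0.90) and *CRZ1* (-0.89). By the adjusted P alone 13 of the 16 passed, where 72.6% of all did. After centring each array on its median 4 of 16 were called, all lower, where 465 of the 5716 probe sets were called lower. Between aspirin-treated strains 6 of 16 were called as deposited, where 25.1% of all were, with *MIG2* higher in EG110, at 2.15, and *NRG2* lower, at -1.71.

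Of 8 calcineurin and Crz1 target genes, 2 were called with aspirin in EG110 and none in EG103, where 12% and 2.61% of all probe sets were called. *PHO89*, the gene of a sodium-coupled phosphate transporter, went from 13.34 ± 0.77 to 8.29 ± 0.15 (SD, n = 3), a difference of -5.05 on the log2 scale (adjusted P = 7.66e-08). *CRH1*, a cell wall transglycosylase gene, rose by 1.08 (adjusted P = 1.39e-05). In EG103 limma gave 3 of the 8 a P below 0.05 both adjusted and unadjusted, where 20.6% of all had an adjusted one. There *PHO89* lay at 13.75 ± 0.18 untreated and 13.35 ± 0.19 with aspirin. *PMC1* and *PMR1*, calcium pump genes, had differences of -0.12 and 0.05 in EG110. Between untreated strains 2 of the 8 were called, both lower in EG110, where 17.4% of all probe sets were called lower. They were *CMK2*, a calmodulin-dependent kinase gene, at -1.56 and *CRH1* at -0.855 (adjusted P = 4.37e-08 and 3.18e-05). Between aspirin-treated strains 2 were called lower, *CMK2* at -1.48 and *PHO89* at -5.07 (adjusted P = 4.93e-08 and 2.07e-08), where 18.1% of all were. The list's median was -0.17 in EG110 and -0.23 in EG103.

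The pumps and exchangers of internal membranes passed the call rule with aspirin in neither strain, where 12% of all probe sets did in EG110 and 2.61% in EG103. By limma's adjusted P alone, 52.3% and 20.6% of all passed. Of the 20 vacuolar H+-ATPase genes, whose product acidifies the vacuole, 6 had an adjusted P below 0.05 by limma in EG110 and 0 in EG103 (10 and 2 at an unadjusted P below 0.05). Their differences were -0.34 to 0.18 in EG110, with a median of -0.08, and -0.11 to 0.16 in EG103. Of the 7 endomembrane exchangers and channels, 5 in EG110 and 2 in EG103 had a limma P below 0.05 both adjusted and unadjusted, with differences of -0.42 to 0.20 and -0.30 to 0.17. Between untreated strains *KHA1*, a potassium/proton antiporter gene, was lower in EG110, at -0.96, and between aspirin-treated strains at -1.15 (adjusted P = 3.89e-08 and 8.77e-09). *YVC1*, the vacuolar cation channel gene, was lower at -0.62 and -1.02, and the first was not called after centring. Vacuolar H+-ATPase calls between strains were 3 of 20 untreated and 4 of 20 with aspirin, all lower in EG110, where 17.4% and 18.1% of all probe sets were called lower, and 0 and 0 after centring each array on its median.

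**Figure D4:**
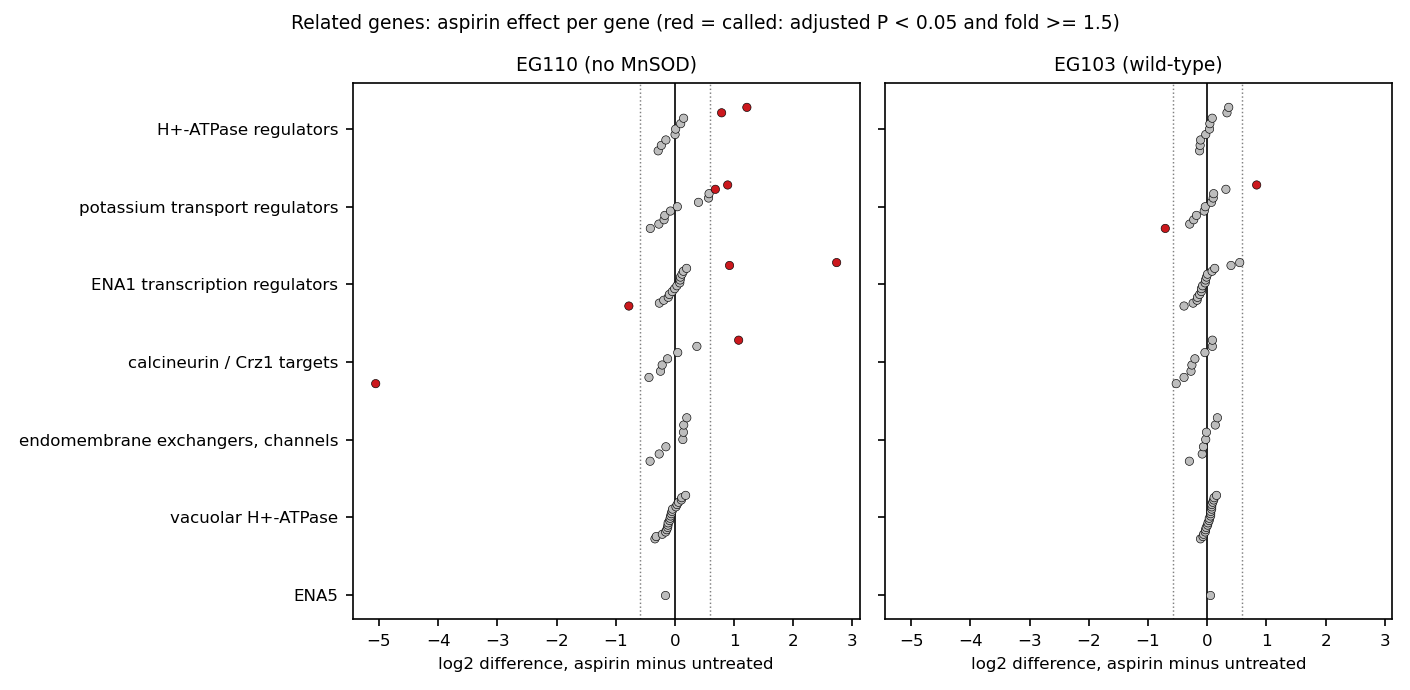
Log2 differences with aspirin in EG110 and in EG103 for the genes of the related lists and *ENA5*, 1 point per gene, red where the gene was called and grey elsewhere; dotted lines mark a fold change of 1.5. In EG110 *PHO89* lies at -5.05 and *MIG2* at 2.73, while the 20 vacuolar H+-ATPase genes stay within -0.34 to 0.18.

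The genes whose log2 values followed each called member most closely over the 12 arrays were found by Pearson correlation among the other tested genes. The arrays share their group structure, so these values describe likeness of pattern. For *PMA1* they were *NDE1* (r = 0.981), which encodes an external mitochondrial NADH dehydrogenase, *SMC2* (0.952) and *RPM2* (0.946). For *PMA2* they were *MCO10* (0.986), *LPX2* (0.980) and the glutathione transferase gene *GTT1* (0.974). *PMP2* was followed by *GRE2* (0.958), *USO1* (0.954) and *STU1* (0.954). *ENA1* was followed by the S-adenosylmethionine permease gene *SAM3* (0.997), by *YVC1* (0.996) and by the ceramide synthase gene *LAC1* (0.996).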

How the data were processed

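RNA from 12 samples, labelled as biological replicates, was hybridized to Affymetrix GeneChip Yeast Genome 2.0 arrays. The authors made the log2 expression values by robust multi-array averaging (RMA) in AltAnalyze 2.0.8.1 and deposited 1 table of them. Its 8 columns of fold changes and P-values for aspirin against untreated cells of each strain were not used. Of 10928 probe sets, 4999 with no *S. cerevisiae* gene and 213 controls were left out, and 5716 were tested, with no filter on low values and no further scaling. Whether RMA was run on both strains together is not given in the sources used here.

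Groups and replicate numbers were taken from the labels. One limma 3.58.1 model in R 4.3.3 held the 4 groups (8 residual degrees of freedom), with Benjamini-Hochberg adjustment over all tested probe sets within each of 5 comparisons. These were aspirin in each strain, strain in each treatment, and the interaction, which is the EG110 effect minus the EG103 effect. The step was tested on simulated data. Adjusted P-values are limma's, SEs are moderated, and the number of arrays limits the precision. Exact permutation tests are two-sided.

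The members and the 7 related lists were chosen with earlier results of these data known. The text names all members, the 3 genes most correlated with each member called with aspirin, and *SOD2* and the mating type markers. From each list it names at most the 4 called genes with the largest difference per comparison. Between the strains not all of these are named, so the list genes given there are a part of those called. Other list genes named beside them were chosen after their values were seen. Gene names were matched through the RefSeq annotation of assembly R64, which also gave the order of the *ENA* genes, and no coordinates were printed.

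Deviations from group means over the tested probe sets were correlated between same-numbered arrays of the EG110 groups (r = 0.142 to 0.343, against -0.387 to 0.221 for other pairs). In EG103 the ranges were 0.0166 to 0.485 and -0.492 to 0.182. Between strains, same-numbered arrays had r of -0.285 to 0.209 untreated and -0.196 to -0.091 with aspirin. As the ranges within each strain overlap, these values cannot decide whether the numbers pair the arrays. The main model held no replicate term, and a replicate block was fitted as an alternative. Alternatives were quantile normalization, centring each array on its median, leaving out the lowest 25% of probe sets and other fold thresholds. Further ones were an unpaired t-test without moderation, fits of each pair of groups alone, trended and robust variance shrinkage, a replicate block and leaving out replicates. Plots were made in Python 3.11.15 using matplotlib 3.10.9.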

Additional observations from a re-analysis of the deposited data

Results flagged for a closer look

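The effect of aspirin differed between the strains, by limma's interaction test together with a fold of at least 1.5, for 3 of the 9 transport genes and for 9 of the 72 genes of the related lists, where 11.6% of all probe sets passed. Values are the log2 effect in EG110 minus that in EG103. Among the members they were 0.83 for *PMA1*, -2.68 for *PMA2* and -0.87 for *ENA1*. *PMA2* was the one member whose effects were called in both strains, in opposite directions. Among regulators of the H+-ATPase the difference was 0.85 for *HRK1* and 0.74 for *AST1*, and among regulators of potassium transport it was 0.61 for *PPZ1*. Among regulators of *ENA1* transcription it was 2.18 for *MIG2*, 1.09 for *NRG1* and -1.18 for *NRG2*. Among calcineurin and Crz1 target genes it was -4.66 for *PHO89*, 1.28 for *CRH1* and 0.63 for *YPS1*, a cell wall protease gene. The differences of *PPZ1* and *YPS1* lie near the fold threshold. That of *PPZ1* fell under it without replicate 3 of every group, untreated EG110 replicate 3, aspirin-treated EG103 replicate 3 or untreated EG103 replicate 1, and that of *YPS1* without replicate 2 of either untreated group. In every case the medium with aspirin was also the medium with the adjusted pH, which the interaction shares between the strains.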

How the results depend on the processing

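The count of members called depended mainly on the fold threshold. With none, counts were 7 with aspirin in EG110, 2 in EG103, 7 between untreated strains, 6 between aspirin-treated strains and 6 for the interaction, and with a threshold of 2 they were 1 in EG110, 0 in EG103 and 1 for the interaction. An unpaired t-test without moderation, adjusted, gave 0 in EG103 (*PMA2* adjusted P = 0.118, limma 0.00248), where over the other alternatives the count was 0 to 2. Quantile normalization and centring each gave 2 between aspirin-treated strains. Leaving out replicates gave 0 to 1 in EG103 (0 without replicate 1), 2 to 3 between untreated strains, 1 to 2 between aspirin-treated strains and 2 to 3 for the interaction.

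Signs changed only for values that were not called. Under quantile normalization the difference between untreated strains was 0.0567 for *TRK1* and 0.0547 for *NHA1*, and between aspirin-treated strains 0.1385 for *TRK2* and 0.0047 for *NHA1*. After centring it was 0.0637 for *TRK1*, 0.0595 for *NHA1* and 0.1364 for *PMP2* untreated, and 0.1245 for *TRK2* and 0.0046 for *NHA1* with aspirin. Leaving out replicates gave aspirin effects in EG103 of -0.0774 to 0.2006 for *PMA1*, -0.0262 to 0.0419 for *TRK2*, -0.0627 to 0.0443 for *ENA1* and -0.0425 to 0.1028 for *ENA5*. It gave *PMP1* differences of -0.0857 to 0.0897 between untreated and -0.0016 to 0.1563 between aspirin-treated strains. Interactions were -0.0097 to 0.1743 for *PMP1* and -0.0873 to 0.0244 for *NHA1*. The cause of these changes was not tested.

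The replicate block changed no member's call, with 4 members in EG110, 1 in EG103, 2 and 1 between strains and 3 for the interaction. The adjusted P of *TOK1* in EG110 was 0.0609 with the block against 0.0406 without it (0.00824 to 0.195 over its alternatives). A block within each strain, added after the data were seen, gave 4, 1 and 3 members with aspirin and in the interaction.

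Over all probe sets, the counts with no fold threshold, as called and at a threshold of 2 were 2987, 685 and 197 in EG110, 1175, 149 and 27 in EG103, 4151, 1419 and 404 between untreated strains, 4149, 1435 and 490 between aspirin-treated strains, and 1894, 662 and 206 for the interaction. The t-test gave 60 in EG103, and leaving out replicate 1 gave 72. Without the lowest 25% of probe sets the counts were 418 and 97 with aspirin, 940 between untreated strains and 401 for the interaction. Of 1906 values of single genes under alternatives, 1761 kept their direction and their side of the threshold, 90 no longer passed it, 25 newly passed it and 30 changed sign.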
